A study of Mus musculus with 12 samples.

Results

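The comparison described here is that of AML12 cells that received a plasmid for DUSP6 fused to green fluorescent protein (GFP-DUSP6) with AML12 cells that received a plasmid for GFP alone, 24 h after transfection. AML12 is a hepatocyte line of mouse. Both groups were transfected with lipo2000, a lipid reagent, and grown in DMEM/F12 with serum, dexamethasone and an insulin, transferrin and selenium supplement (ITS), and each holds 3 libraries of total RNA. All cells are of 1 line and the expression is transient. The sources used here give neither the share of cells that took up a plasmid nor the species of the DUSP6 sequence. The members are the 707 genes of the authors' deposited table for these 6 libraries, of 2600 genes listed for either of the study's comparisons. The other comparison (siDUSP6 against the negative-control siRNA NC, 48 h, 3 libraries each) shares no library with this one and 257 listed genes.

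DUSP6 (also MKP-3) is a cytoplasmic dual-specificity phosphatase that removes the phosphates from the activation loop of the MAP kinases ERK1 and ERK2. ERK activity itself induces the Dusp6 gene, together with Spry, Spred and other Dusp genes, so that these transcripts form a negative feedback on the kinase. In hepatocytes ERK is driven by receptors such as EGFR, the receptors for FGF and MET, while NF-kB, STAT and IRF factors drive the acute-phase, chemokine and interferon-stimulated genes.

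Dusp6 itself held 3327, 3311 and 3417 normalized counts in the 3 GFP libraries and 2433, 2421 and 2208 in the 3 libraries labelled GFP-DUSP6. All 3 libraries labelled GFP-DUSP6 were therefore lower. That would go against their label only if reads of the plasmid's transcript were counted. The log2 fold change was -0.51 ± 0.06 (± SE, 3 against 3 libraries) and the adjusted p in the authors' deposited table was 2.56e-12. The sources used here do not say whether reads of the plasmid's transcript enter this count, so the count does not check the transfection. For that reason every direction below is that of the libraries as labelled. In the siRNA comparison the same gene had a mean of 3935 normalized counts with NC and 1783 with siDUSP6.

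A normalized count is a gene's read count divided by the library's size factor. Where values of a gene are given as 3 against 3, those before "against" are the GFP libraries and those after it the libraries labelled GFP-DUSP6, each in the order of the replicate number, and log2 fold changes are those of libraries labelled GFP-DUSP6 over GFP libraries. A gene was called where the authors' deposited table gives an adjusted p under 0.05. The table holds genes chosen for their p-value in this same contrast. Genes that did not pass therefore have no value here, and a listed gene had to differ. The 27 gene lists used below were chosen with earlier results of these data known. The share of a list that was called may thus be fixed in part by that choice. It does not measure enrichment over the genes tested, and the same holds for motif shares of called list members. The listed counts sum to between 1303866 and 1531091 per library, which is not the depth, and the size factors lay between 0.940 and 1.05. Within a group, counts varied beyond sampling noise, with a chi-square of 3.89 to 13.5 per degree of freedom over the pairs of libraries. Since the labels name no separate cultures, a p-value here reflects only how far these libraries vary, possibly for technical reasons.

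In all, 580 genes were called, which is 4.61% of the 12592 genes that the deposited p-values imply were tested. They were 427 genes higher in the libraries labelled GFP-DUSP6 (3.39% of genes tested) and 153 lower (1.22%). Another 127 listed genes had no adjusted p, with means between 1.55 and 12.4 normalized counts, and are given as values only. Most called differences were small: 399 of 580 (68.8%) were under 0.5 in log2 size, 45 reached 1 (35 higher and 10 lower) and 14 reached 2 (12 higher and 2 lower). The median log2 fold change in the authors' deposited table was 0.44 for higher and -0.30 for lower genes. The libraries of the groups did not overlap for 578 of the 580 called genes. The choice of genes by p-value in this same contrast largely fixes that, here and for the single genes below. The share without overlap over all genes tested is not known.

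Scaled to the listed genes alone, which by construction puts the middle of the listed genes near 0, the log2 fold changes shifted by -0.30 with TMM and by -0.32 with the median of ratios. The calls then were 57 higher and 156 lower (26.8% higher), or 44 higher and 156 lower (22% higher), against 73.6% higher in the deposited calls. Lists whose direction depends on that shift are named with their counts below. An edgeR refit of the listed genes, used for the fold changes and for the settings that follow, called 529 (4.2% of genes tested), of which 400 were higher (3.18%) and 129 lower (1.02%). Leaving out 1 library gave between 199 calls (without the third library labelled GFP-DUSP6) and 509 (without the second GFP library), with 264 without the third GFP library and 308 to 324 without the second or the first labelled GFP-DUSP6.

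Chemokines and acute-phase proteins had the largest differences of the comparison. Of 41 chemokine and cytokine genes, 8 were higher (19.5%, against 3.39% of genes tested) and none was lower. Their median log2 fold change was 2.61, against 0.44 over all genes called higher; 4 more were listed without an adjusted p and 29 were not listed. All 8 calls and their direction were kept without any 1 library and under both scalings to the listed genes. Ccl2, the main attractant of monocytes, held 241, 245 and 224 normalized counts in the GFP libraries and 2225, 2339 and 2593 in those labelled GFP-DUSP6. Its log2 fold change was 3.34 ± 0.08, with an adjusted p of 2.96e-247 in the authors' deposited table, the smallest of the 707 genes. Every library labelled GFP-DUSP6 lay far above the highest GFP library.

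The attractants of neutrophils that bind CXCR2 were higher together. Cxcl1 held 154, 151 and 192 normalized counts in the GFP libraries and 732, 833 and 968 in those labelled GFP-DUSP6, a log2 fold change of 2.35 ± 0.13. Cxcl5 went from 21.7, 18.1 and 16.8 to 253, 268 and 343, or 3.93 ± 0.21. Cxcl3 had few reads in the GFP libraries (7.24, 4.26 and 9.90) and 54.7, 65.9 and 86 in those labelled GFP-DUSP6 (3.26 ± 0.35). Within each of these genes the third library labelled GFP-DUSP6 was the highest. Cxcl2, a near copy of Cxcl3, was listed without an adjusted p at 1.03, 3.19 and 7.92 against 17.9, 5.73 and 29, and its libraries overlapped.

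Ccl20, the ligand of CCR6 on dendritic and T helper 17 cells, held 20.7, 34 and 45.5 against 198, 171 and 214 normalized counts (2.53 ± 0.22). Cxcl10, an interferon-induced ligand of CXCR3, held 17.6, 7.45 and 2.97 against 60.7, 42.9 and 70.5, with a log2 fold change of 2.65 ± 0.40. The third GFP library was lowest, and the groups did not overlap. Ccl5, an attractant of T cells and monocytes, held 5.17, 2.13 and 10.9 against 48.8, 35.3 and 26.1 (2.57 ± 0.45), and here the first library labelled GFP-DUSP6 was highest. Csf1, the growth factor of macrophages, was already abundant at 2421, 2528 and 2526 and held 4419, 4949 and 4964 in the libraries labelled GFP-DUSP6, a smaller difference of 0.94 ± 0.06. Per kilobase of exon, the mean level of Ccl2 with the label GFP-DUSP6 was 2096 normalized counts and that of Csf1 905, followed by Cxcl1 with 450.5 and Cxcl5 with 155. In the GFP libraries the per-kilobase means were 472 for Csf1 and 208 for Ccl2, so that the order of the 2 genes turned.

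**Figure D1:**
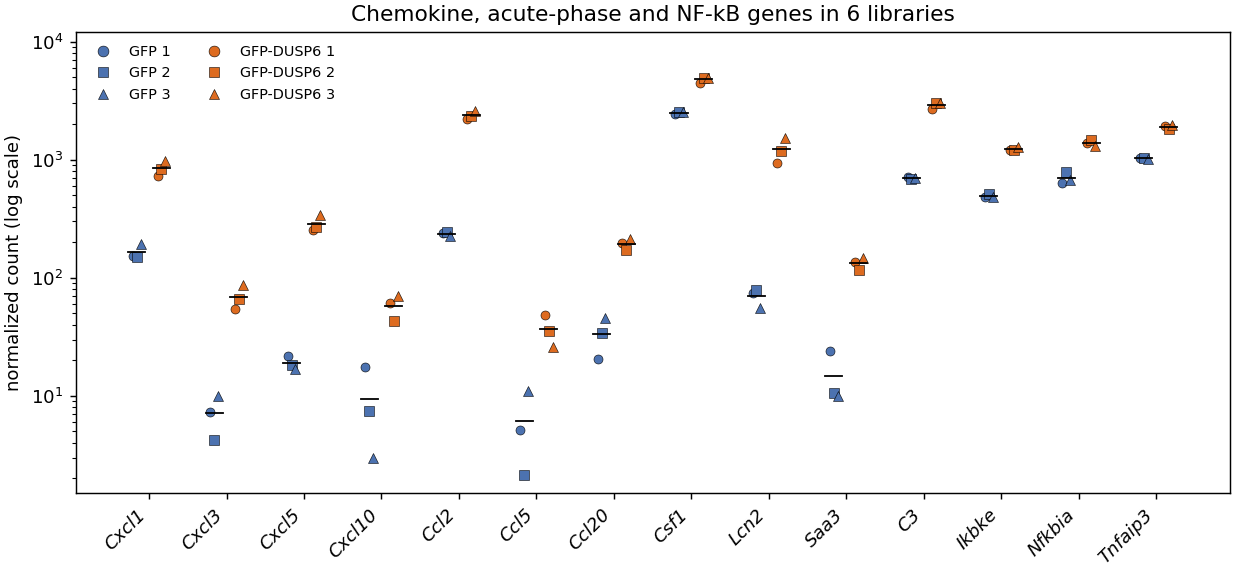
Normalized counts (log scale) of 14 genes higher in the libraries labelled GFP-DUSP6, 1 symbol per library and a black line at each group's mean. The groups do not overlap for any of the 14 genes, from Csf1 with a log2 fold change of 0.94 and Tnfaip3 with 0.90 to Lcn2 with 4.14.

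Promoters of these genes, 250 bases before to 50 bases after the RefSeq start, are shown because a short motif recurs in them. The kappaB motif searched on both strands was GGGA and TTCC with any 2 bases between them, which reads much alike on either strand, so that matches can overlap. It was found in 4 of the 5 promoters that the RefSeq table (GRCm38.p6) holds for the 8 called chemokine and cytokine genes (80.0%). The share was 17.6% (3 of 17) of promoters of called NF-kB pathway genes, 0 of 6 for the called acute-phase and complement genes, 4.56% (18 of 395) of promoters of all genes called higher, 0.645% (1 of 155) of those called lower and 1.47% of all 32851 promoters. By gene, 2 of 14 NF-kB pathway genes (14.3%) hold it, since 2 of the 3 promoters are overlapping windows of Nfkb2 that share a match. The AP-1 motif TGANTCA, searched in the same way, was in 23.5% of the promoters of called NF-kB pathway genes, 20% (1 of 5) of those of the chemokines and 7.81% of all promoters. A match is a description of the letters and says nothing of whether a factor bound there. The promoters of Cxcl1 (chr5:90890995-90891294, plus strand), Cxcl3 (chr5:90785851-90786150, plus strand), Csf1 (chr3:107760420-107760719, minus strand) and Nfkbia (chr12:55492598-55492897, minus strand) follow, 5′ to 3′ along the gene's strand, with the kappaB match in capitals.
Cxcl1: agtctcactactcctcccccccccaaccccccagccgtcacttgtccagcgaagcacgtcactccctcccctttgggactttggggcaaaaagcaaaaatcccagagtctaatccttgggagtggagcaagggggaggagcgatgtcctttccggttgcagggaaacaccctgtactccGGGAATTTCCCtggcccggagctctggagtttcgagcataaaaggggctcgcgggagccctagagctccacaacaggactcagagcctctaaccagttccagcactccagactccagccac
Cxcl3: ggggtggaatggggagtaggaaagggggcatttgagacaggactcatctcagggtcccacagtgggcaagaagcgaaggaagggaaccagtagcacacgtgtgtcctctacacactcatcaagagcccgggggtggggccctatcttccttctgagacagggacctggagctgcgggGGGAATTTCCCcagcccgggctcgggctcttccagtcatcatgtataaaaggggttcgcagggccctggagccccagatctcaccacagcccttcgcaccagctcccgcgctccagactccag
Csf1: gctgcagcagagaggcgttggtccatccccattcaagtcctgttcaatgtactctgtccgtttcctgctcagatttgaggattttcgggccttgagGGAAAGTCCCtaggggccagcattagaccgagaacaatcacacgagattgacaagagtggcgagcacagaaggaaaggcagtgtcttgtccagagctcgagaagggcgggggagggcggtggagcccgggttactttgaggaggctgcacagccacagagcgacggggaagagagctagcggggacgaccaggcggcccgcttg
Nfkbia: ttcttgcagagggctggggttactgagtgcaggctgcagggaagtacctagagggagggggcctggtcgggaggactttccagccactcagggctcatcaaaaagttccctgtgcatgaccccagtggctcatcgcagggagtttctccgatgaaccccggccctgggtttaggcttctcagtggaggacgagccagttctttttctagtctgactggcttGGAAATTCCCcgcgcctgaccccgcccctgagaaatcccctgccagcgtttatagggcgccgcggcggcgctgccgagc
The matches of Cxcl1 and Cxcl3, 2 genes of 1 chemokine cluster on chromosome 5, began at -71 and -73 from the start, that of Nfkbia at -29 and that of Csf1 at -154. Cxcl5 and Cxcl3 lie within 100 kb of each other in that cluster.

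Many genes of the NF-kB pathway, activators as well as inhibitors, were higher in the libraries labelled GFP-DUSP6. Of 44 such genes, 18 were higher (40.9%, against 3.39% of genes tested), none was lower, 1 had no adjusted p and 25 were not listed. Their median log2 fold change was 0.81, and the 18 genes were positive under both scalings to the listed genes, and TMM still called 11 and the median of ratios 8 of the list. Whichever library was left out, 15 of the 18 were called.

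Among the inhibitors, Nfkbia, which encodes the protein that holds NF-kB in the cytoplasm and is itself an NF-kB target, held 634, 779 and 677 normalized counts with GFP and 1394, 1467 and 1298 in the libraries labelled GFP-DUSP6 (0.99 ± 0.08). Tnfaip3, the ubiquitin-editing enzyme A20, held 1025, 1037 and 1014 against 1926, 1826 and 1972 (0.90 ± 0.06), with an adjusted p of 2.84e-29 in the authors' deposited table. Tnip1, a partner of A20, held 1158, 1384 and 1251 against 1933, 1951 and 2016 (0.64 ± 0.07). In each of these genes all libraries labelled GFP-DUSP6 lay above all GFP libraries. Zc3h12a, an RNase that degrades cytokine mRNAs, Nfkbie and Bcl3 had log2 fold changes of 1.18 ± 0.17, 0.87 ± 0.12 and 0.75 ± 0.10.

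Ikbke, a kinase related to TBK1 that acts on IRF3 and NF-kB, held 486, 509 and 487 normalized counts with GFP and 1217, 1204 and 1269.9 in those labelled GFP-DUSP6, or 1.32 ± 0.07, the largest difference among the called genes of the list. The subunits of NF-kB itself were higher by less: Relb held 748, 815 and 802 against 1328, 1413 and 1284 (0.77 ± 0.07), and Nfkb1, Nfkb2 and Rel had log2 fold changes of 0.43 ± 0.05, 0.43 ± 0.06 and 0.49 ± 0.12. The call of Rel was lost in 5 of the 6 refits without 1 library and that of Traf1 in 3 (adjusted p up to 0.226 and 0.0987, edgeR). Vcam1, an adhesion molecule for leukocytes and a classical NF-kB target, held 217, 173 and 177 against 459.6, 423 and 462 (1.24 ± 0.12). Birc3, an inhibitor of apoptosis that takes part in TNF receptor signalling, had 0.82 ± 0.12, and Traf1 1.10 ± 0.24. In the siRNA comparison 5 of all 44 genes of the list were called higher and none lower, and 4 of the 18 were among them. Over all genes tested in that comparison, 7.76% were called higher. There Tnfaip3 had means of 582 with NC and 713 with siDUSP6.

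Receptors of cytokines and microbial products gave fewer calls, 4 higher and 1 lower of 31 (12.9% and 3.23%, against 3.39% and 1.22% of genes tested). Tnfrsf9 (4-1BB, a costimulatory TNF receptor) held 19.7, 20.2 and 30.7 against 66.7, 56.3 and 66.7 normalized counts (1.42 ± 0.25). Fas, the death receptor, had 1.02 ± 0.19, Ifngr2, a chain of the interferon gamma receptor, 0.45 ± 0.10, and Cd14, the co-receptor for lipopolysaccharide, 0.51 ± 0.06. The receptor for TWEAK, Tnfrsf12a, was lower by a small amount (-0.23 ± 0.06). The calls of Fas, Ifngr2 and Tnfrsf12a were lost without the third library labelled GFP-DUSP6, with adjusted p up to 0.0616, 0.0966 and 0.194 in the edgeR refits without 1 library. Ifngr2 lost its call in 3 and Tnfrsf12a in 4 of those 6 refits. Tlr2 was listed without an adjusted p at 1.03, 5.32 and 4.95 against 14.9, 19.1 and 25.1.

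Acute-phase and complement genes, which hepatocytes secrete in inflammation, were higher in 7 of 46 cases (15.2%, against 3.39% of genes tested) and lower in none. Of the list, 1 more had no adjusted p and 38 were not listed. Their median log2 fold change was 1.46. Lcn2, lipocalin 2, which binds bacterial siderophores, had the largest fold change of all called genes: 74.5, 78.7 and 55.4 normalized counts in the GFP libraries and 946, 1188 and 1525 in those labelled GFP-DUSP6, a log2 fold change of 4.14 ± 0.18. The 3 libraries labelled GFP-DUSP6 differed among themselves by more than those of GFP in absolute count, the third being highest. Saa3, an inducible serum amyloid A, held 23.8, 10.6 and 9.90 against 137, 116 and 146 (3.17 ± 0.27). C3, the central complement protein, held 709, 687 and 697 against 2677, 3044 and 3025 (2.06 ± 0.07), with groups that were tight beside the difference between them.

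Hp (haptoglobin, which binds free haemoglobin) held 83.8, 71.3 and 70.3 against 187, 136 and 159 normalized counts (1.10 ± 0.17), and Cp (ceruloplasmin, a copper oxidase) 3500.3, 2639.8 and 2904 against 5229, 4869 and 4678 (0.71 ± 0.08). These 2 genes and C1ra were called in the opposite direction in the siRNA comparison, where Cp had means of 4946 with NC and 1969.7 with siDUSP6, and Hp 50.7 and 21.2. Lcn2 and C3, in contrast, were called higher there too, with means of 51.2 and 90.8 for Lcn2 and 295 and 419 for C3. C1ra, a complement protease that shares much of its sequence with a neighbouring copy, had 1.46 ± 0.29, and Orm1, an acute-phase carrier protein with close relatives, 0.65 ± 0.16; both values are uncertain where reads could be split between copies. The call of C1ra was lost without the third GFP or the second library labelled GFP-DUSP6, and that of Orm1 in 5 of 6 such refits (adjusted p up to 0.0638 and 0.163, edgeR).

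Of 58 interferon-stimulated genes in the list, 14 were higher in the libraries labelled GFP-DUSP6 (24.1%, against 3.39% of genes tested). None was lower and 2 had no adjusted p. The median log2 fold change of those called was 1.09. Isg20, an interferon-stimulated gene that the list leaves out, was called lower (-0.27, adjusted p 0.00151 in the authors' deposited table). It was called higher with siDUSP6, and was chosen after its values were seen. Its plasmid call was lost in the edgeR refit without the third library labelled GFP-DUSP6. The list rested in part on the third libraries: 7 of its genes were called without the third GFP library, and 7 without the third labelled GFP-DUSP6. The third GFP library was the lowest of the 6 over these genes, with a mean log2 ratio to the GFP mean of -0.40, against 0.14 and 0.09 in the other GFP libraries and 1.01 to 1.18 in those labelled GFP-DUSP6. No gene of the list changed sign under the scalings to the listed genes, where 6 (TMM) or 3 (median of ratios) were called.

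Bst2 (tetherin, which retains budding virions at the cell surface) was the most abundant example, at 837, 896 and 794 against 1219.8, 1341 and 1391 normalized counts (0.65 ± 0.08). The RNA sensor gene Rigi held 297, 255 and 238 against 468, 457 and 431 (0.78 ± 0.11), and the transcription factor gene Irf1 261, 251 and 242 against 463, 368 and 463 (0.78 ± 0.12). For these 3 genes the groups did not overlap and the third GFP library was the lowest, if only slightly for Irf1.

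Low-count members had larger fold changes and larger errors. Oas3, a synthetase of 2′-5′ oligoadenylates that activate RNase L, held 124, 120.2 and 59.4 against 253, 241 and 249 (1.30 ± 0.20), and Ifit1, which binds RNA without a host cap, 62.1, 39.4 and 21.8 against 84.6, 81.1 and 113 (1.18 ± 0.28). Rsad2 (viperin) held 46.5, 27.7 and 24.8 against 95.5, 93.5 and 64.8 (1.36 ± 0.26), and Usp18, the protease that removes ISG15, 17.6, 25.5 and 9.90 against 60.7, 42.9 and 51.2 (1.56 ± 0.31). The calls of Rsad2, Usp18 and Ifit1 were lost without the third GFP library, with adjusted p up to 0.0537, 0.0639 and 0.223 over the edgeR refits without 1 library. Oas2 and Oas3 on chromosome 5, and Ifit1 and Ifit2 on chromosome 19, are neighbours within 100 kb. Of the 50-base words in their GENCODE M21 transcripts, 0% for Oas2, 0.31% for Oas3, 0% for Ifit2 and 7.13% for Ifit1 also occur in another gene.

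All 14 called interferon-stimulated genes of the list were also called higher with siDUSP6. In that comparison 53 of all 58 genes of the list were called higher, against 7.76% of genes tested, so the agreement is not particular to the 14. There Bst2 had means of 838 with NC and 6312 with siDUSP6, and Rsad2 7.03 and 693. The differences with siDUSP6 thus were larger for both genes than the plasmid differences given above, at another time and with another nucleic acid; the difference between them was not tested. Of 18 genes of cytosolic DNA sensing, 3 were higher (16.7%, against 3.39% of genes tested). They were Samhd1, a dNTP hydrolase that is also in the interferon list (0.51 ± 0.10), Casp4, the inflammatory caspase 11 (1.15 ± 0.19), and Gsdmd, the pore protein that Casp4 cleaves (0.39 ± 0.05). Samhd1 lost its call without the third library of either group (edgeR adjusted p up to 0.0874). Both groups received plasmid DNA, and the part of DNA sensing in these values was not tested.

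Of 22 genes of MHC class I antigen presentation, 4 were higher (18.2%, against 3.39% of genes tested) and none lower. Log2 fold changes were 0.45 ± 0.05 for B2m, the invariant light chain, 0.79 ± 0.11 for Tapbp (tapasin, of the peptide-loading complex), 0.32 ± 0.06 for H2-D1 and 0.33 ± 0.08 for H2-K1, both heavy chains. B2m held 2866, 2791 and 2824 against 3959, 3762 and 3833 normalized counts. The heavy chains have many near copies, and their calls were lost without the second or the third library labelled GFP-DUSP6. H2-K1 lost its call in 4 of the 6 refits without 1 library (edgeR adjusted p up to 0.0799 for H2-D1 and 0.149 for H2-K1). Under median-of-ratios scaling H2-D1 turned to a log2 fold change of -0.0034.

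Promoters of interferon-stimulated genes are shown with matches to GAAA and GAAA with any 2 bases between them, the core of the interferon-stimulated response element (ISRE), searched on both strands with overlaps allowed. It was found in 45.5% (5 of 11) of the promoters of the called interferon-stimulated genes, against 6.08% of promoters of all genes called higher and 3.44% of all promoters. Those of Bst2 (chr8:71537423-71537722, minus strand) and Oas3 (chr5:120777610-120777909, minus strand), GRCm38.p6, follow with the matches in capitals.
Bst2: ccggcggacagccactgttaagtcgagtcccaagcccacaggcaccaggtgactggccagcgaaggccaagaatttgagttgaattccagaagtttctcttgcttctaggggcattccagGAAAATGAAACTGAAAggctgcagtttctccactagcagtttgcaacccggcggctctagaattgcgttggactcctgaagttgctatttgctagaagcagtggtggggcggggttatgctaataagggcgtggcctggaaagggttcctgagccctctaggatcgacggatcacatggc
Oas3: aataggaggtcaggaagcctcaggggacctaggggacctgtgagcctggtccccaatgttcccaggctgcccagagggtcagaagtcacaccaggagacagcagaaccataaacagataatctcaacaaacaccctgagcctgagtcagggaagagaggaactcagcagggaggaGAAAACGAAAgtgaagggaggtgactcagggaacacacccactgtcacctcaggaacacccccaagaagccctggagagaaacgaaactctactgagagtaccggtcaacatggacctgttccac
The Bst2 promoter holds 2 overlapping matches, from -130 and from -124, and that of Oas3 holds 1 from -75.

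**Figure D2:**
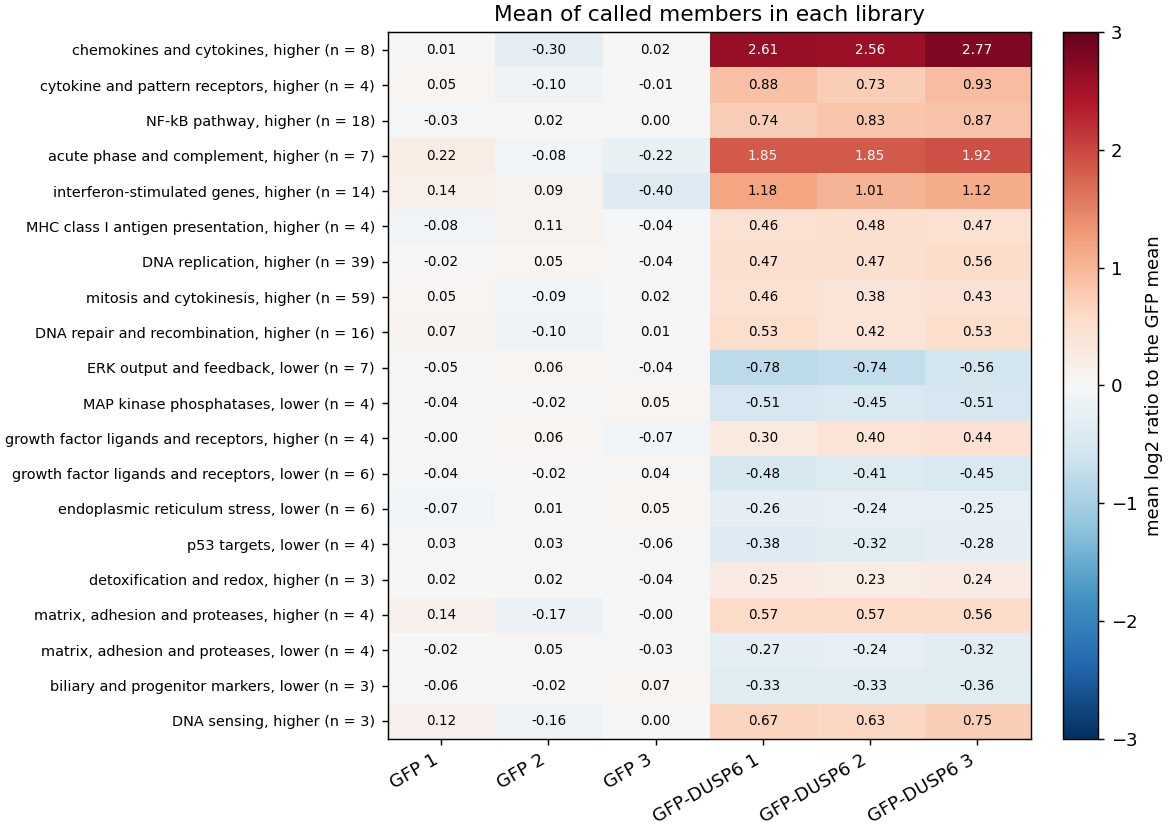
Mean log2 ratio of each library to the GFP mean, over the called members of each list in the direction named (n genes), for the 3 GFP and the 3 libraries labelled GFP-DUSP6. All libraries labelled GFP-DUSP6 are on 1 side of all GFP libraries in each row, which the choice of called genes fixes; the third GFP library is lowest for interferon-stimulated genes at -0.40. Under scaling to the listed genes all values of the libraries labelled GFP-DUSP6 shift down by about 0.30.

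Genes of DNA replication were higher in number more than in size. Of 63 such genes, 39 were higher (61.9%, against 3.39% of genes tested), none was lower and 24 were not listed. The log2 fold changes of the 39 ran from 0.26 to 0.76, with a median of 0.47. Without the third library labelled GFP-DUSP6, 22 of the list were called. Scaled to the listed genes, 5 or 2 (by TMM or by ratios) of the list were called and 1 or 2 of the 39 genes turned negative, so the direction of the smallest differences depends on the scaling.

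The replicative helicase genes Mcm2 to Mcm7 were all called higher. Mcm3 held 1720.2, 1842 and 1618 normalized counts with GFP and 2667, 2688 and 2750.4 in those labelled GFP-DUSP6 (0.65 ± 0.06), and Mcm5 1764, 2148 and 2032 against 2828, 3105 and 3289.7 (0.63 ± 0.07). The other four had log2 fold changes of 0.55 ± 0.06 for Mcm6, 0.45 ± 0.07 for Mcm4, 0.33 ± 0.06 for Mcm2 and 0.31 ± 0.06 for Mcm7; the calls of Mcm2 and Mcm7 were lost without the third library labelled GFP-DUSP6 (edgeR adjusted p up to 0.0879 and 0.0769). Among the factors that load the helicase at origins, Cdc6 had 0.74 ± 0.11 and Cdt1 0.47 ± 0.08, and Gins2 and Cdc45, its activating partners, 0.72 ± 0.12 and 0.47 ± 0.12. The call of Cdc45 was lost in 5 of the 6 refits without 1 library (adjusted p up to 0.194, edgeR).

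Genes of nucleotide supply and DNA synthesis were also among those called higher. Rrm1, the large subunit of ribonucleotide reductase, held 1607, 1528 and 1445 against 2512, 2219.9 and 2482 normalized counts (0.66 ± 0.07), with 0.47 ± 0.07 for Tyms, thymidylate synthase. Uhrf1, which brings DNA methyltransferase 1 to new DNA, held 1996, 2196 and 2155 against 2971, 3117 and 3342 (0.57 ± 0.06). Log2 fold changes were 0.61 ± 0.09 for Pola1, the catalytic subunit of polymerase alpha, 0.53 ± 0.07 for Pole, that of polymerase epsilon, 0.62 ± 0.08 for Lig1, the ligase of the lagging strand, and 0.39 ± 0.07 for Pcna, the sliding clamp, whose call was lost without the third library labelled GFP-DUSP6 (edgeR adjusted p 0.0616). In the siRNA comparison 12 of all 63 genes of the list were called, all lower, and 11 of the 39 were among them. There 7.19% of genes tested were called lower. Rrm1 had means of 1744 with NC and 1229.5 with siDUSP6, and Mcm3 1612 and 1324.

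Mitosis and cytokinesis gave 59 higher and no lower calls of 84 genes (70.2% higher, against 3.39% of genes tested). The median of their log2 fold changes was 0.41. The count fell to 24 without the third library labelled GFP-DUSP6, 34 without the second, 36 without the first and 29 without the third GFP library. Only 1 of the list was called under each scaling to the listed genes, where 8 (TMM) or 15 (median of ratios) of the 59 turned negative.

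Mybl2 (B-Myb, which activates genes of the G2 phase and mitosis) held 749.9, 861 and 749 against 1184, 1353 and 1348 normalized counts (0.72 ± 0.08). Top2a, the topoisomerase that untangles chromosomes, held 6096, 5016 and 5862 against 8451, 7705 and 7762 (0.49 ± 0.07), and the proliferation marker gene Mki67 5185, 3661 and 4636 against 6946, 6820.2 and 6637 (0.60 ± 0.09). The second GFP library was the lowest for both of the latter genes, and the groups did not overlap. Log2 fold changes were 0.67 ± 0.10 for Bub1 and 0.48 ± 0.08 for Mad2l1 of the spindle checkpoint, 0.68 ± 0.11 for Plk4, which duplicates centrioles, 0.45 ± 0.07 for the cyclin gene Ccna2, 0.29 ± 0.06 for Ccnb1 and 0.41 ± 0.07 for Cdk1, their kinase. With siDUSP6 52 of all 84 genes of the list were called lower and none higher, and 38 of the 59 were among them. In that comparison 7.19% of genes tested were called lower. Top2a had means of 4041 with NC and 3000.3 with siDUSP6, and Mki67 3064 and 2306.

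DNA repair and recombination genes were higher in 16 of 36 cases (44.4%, against 3.39% of genes tested) and lower in none. Of the list, 4 were called without the third library labelled GFP-DUSP6, 7 without the third GFP library, and 9 and 10 without the second and the first labelled GFP-DUSP6. The chromatin remodeller gene Hells held 1645, 1080.0 and 1512 against 2402, 2173 and 2212 normalized counts (0.68 ± 0.11). Brip1, a helicase partner of BRCA1, had 0.68 ± 0.13, and Exo1, the exonuclease of mismatch repair, 0.60 ± 0.12; both calls were lost without the third library labelled GFP-DUSP6 (edgeR adjusted p up to 0.0826 and 0.0769). None of the 16 was called under either scaling to the listed genes, and 2 turned negative.

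Promoters of these genes are shown with 2 motifs of the cell cycle. The E2F motif was searched as TTTCCCGC or TTTGGCGC and the cell cycle gene homology region (CHR) as TTTGAA, on both strands. E2F matches were in 25.6% (10 of 39) of promoters of the called replication genes, 10.4% of all called higher, 2.58% of all called lower and 1.56% of all promoters. CHR matches were in 68.5% (37 of 54) of promoters of the called mitosis genes, 15.4% of those of replication genes, 23.8% of all called higher and 17.9% of all promoters. The promoter of Mcm3 (chr1:20820263-20820562, minus strand) has its E2F matches in capitals and that of Top2a (chr11:99024140-99024439, minus strand) its CHR matches, both GRCm38.p6.
Mcm3: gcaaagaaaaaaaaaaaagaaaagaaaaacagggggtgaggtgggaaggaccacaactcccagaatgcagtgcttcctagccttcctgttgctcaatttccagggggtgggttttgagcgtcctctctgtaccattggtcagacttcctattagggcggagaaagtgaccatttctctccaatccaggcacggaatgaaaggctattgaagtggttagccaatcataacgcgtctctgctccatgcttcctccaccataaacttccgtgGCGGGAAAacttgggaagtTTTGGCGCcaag
Top2a: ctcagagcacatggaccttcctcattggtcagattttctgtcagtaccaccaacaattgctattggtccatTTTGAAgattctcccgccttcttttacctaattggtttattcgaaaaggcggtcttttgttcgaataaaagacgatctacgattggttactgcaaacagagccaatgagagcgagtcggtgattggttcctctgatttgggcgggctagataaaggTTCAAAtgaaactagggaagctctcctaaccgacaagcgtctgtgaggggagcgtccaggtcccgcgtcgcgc
The E2F matches of Mcm3 began 19 and 38 bases after the start, and the CHR matches of Top2a at -179 and -23.

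**Figure D3:**
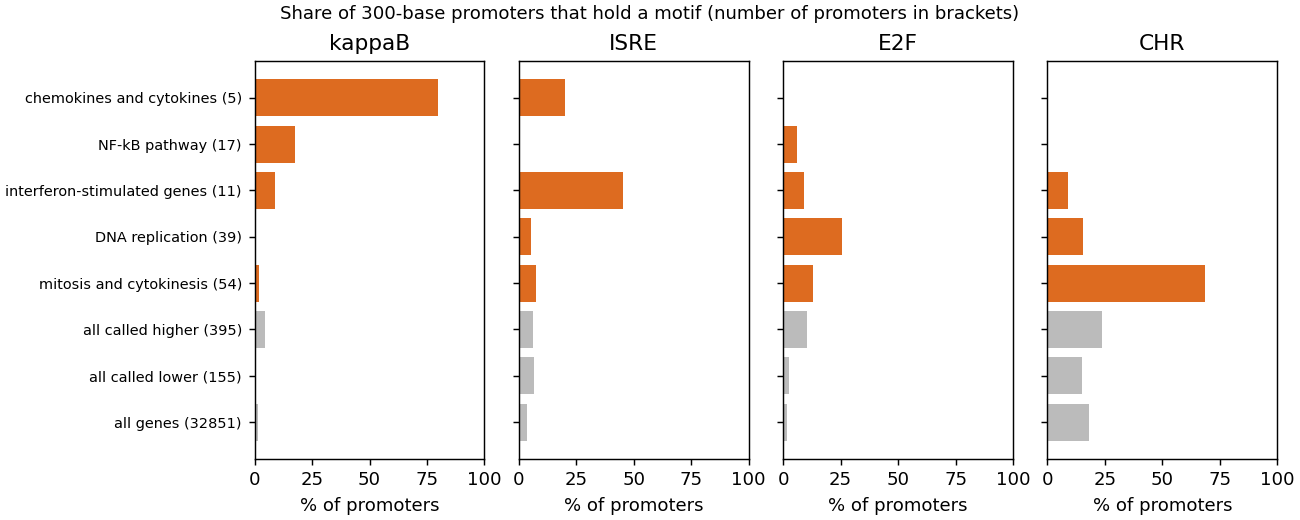
Percent of 300-base RefSeq promoters that hold a kappaB, ISRE, E2F or CHR match, for called members of 5 lists (orange) and for all genes called higher, all called lower and all genes of the table (grey), with the number of promoters in brackets. The highest share in each panel is that of the chemokines for kappaB (80.0% of 5), the interferon-stimulated genes for ISRE (45.5% of 11), replication for E2F (25.6% of 39) and mitosis for CHR (68.5% of 54).

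Several transcripts that ERK signalling induces were lower in the libraries labelled GFP-DUSP6. Of 35 such genes, 7 were lower (20.0%, against 1.22% of genes tested), 1 was higher and the rest were not called. In the refits without 1 library, 4 of the 7 were called without the second library labelled GFP-DUSP6. Among 10 MAP kinase phosphatase genes 4 were lower (40%, against 1.22% of genes tested), Dusp6 included, and none was higher. Dusp5, a nuclear phosphatase of ERK that is itself an ERK target, held 964, 893 and 986 normalized counts with GFP and 623, 583 and 558 in those labelled GFP-DUSP6 (-0.69 ± 0.08). Dusp1, which prefers p38 and JNK, held 1661, 1687 and 1604 against 1351, 1419 and 1332 (-0.27 ± 0.06), and Dusp8, of like preference, 294, 334 and 376 against 207, 250.1 and 258 (-0.49 ± 0.13). The call of Dusp8 was lost in 5 and that of Dusp1 in 3 of the 6 refits without 1 library, with adjusted p up to 0.333 and 0.144 (edgeR).

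Jun, a subunit of AP-1, held 921, 1042 and 964 against 740.2, 690.0 and 671 normalized counts (-0.48 ± 0.08), while Fosb, another subunit, had few reads, with 29, 43.6 and 20.8 against 2.98, 4.77 and 14.5 (-2.05 ± 0.48). Spred2, an inhibitor of the RAS to RAF step, had -0.30 ± 0.06, Emp1, an epithelial membrane protein, -0.34 ± 0.05, and Epha2, an ephrin receptor, -0.27 ± 0.06. Ier3, an immediate early gene that NF-kB also induces, was the 1 member called higher, at 779.9, 792 and 759 against 1049, 1207 and 1266 (0.60 ± 0.08). Spred2 lost its call in 3, Epha2 in 4 and Fosb in 3 of the 6 refits without 1 library (edgeR adjusted p up to 0.116, 0.161 and 0.149). With siDUSP6, Dusp5 had means of 722 with NC and 1241 with siDUSP6, Dusp8 202 and 288, and Dusp1 2026 and 1387. Of these, Dusp5 and Dusp8 were called in opposite directions in the comparisons and Dusp1 in the same direction.

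Growth factor ligands and receptors gave 4 higher and 6 lower calls of 53 (7.55% and 11.3%, against 3.39% and 1.22% of genes tested). The lower ones included the ErbB system: Areg, amphiregulin, a ligand of EGFR, held 1599, 1591 and 1901 normalized counts with GFP and 1078, 1128 and 1117 in those labelled GFP-DUSP6 (-0.62 ± 0.08). Btc, betacellulin, a ligand of EGFR and ERBB4, had -0.56 ± 0.15, and Erbb3, a partner receptor that binds neuregulins, held 752, 872 and 718 against 508, 616 and 513 (-0.52 ± 0.10). The groups did not overlap for Areg or Erbb3. Vegfa, the growth factor of endothelium, and Irs2, an adaptor of the insulin receptor, had -0.30 ± 0.05 and -0.31 ± 0.06. Fgfr2, a receptor for FGF ligands, was higher (0.62 ± 0.15); Tgfbr2, with 0.30 ± 0.06, turned to -0.023 under median-of-ratios scaling. Calls of Erbb3, Irs2, Btc, Fgfr2 and Tgfbr2 were lost without the third library labelled GFP-DUSP6, with edgeR adjusted p up to 0.0808, 0.0766, 0.323, 0.241 and 0.0766 over the refits without 1 library.

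**Figure D4:**
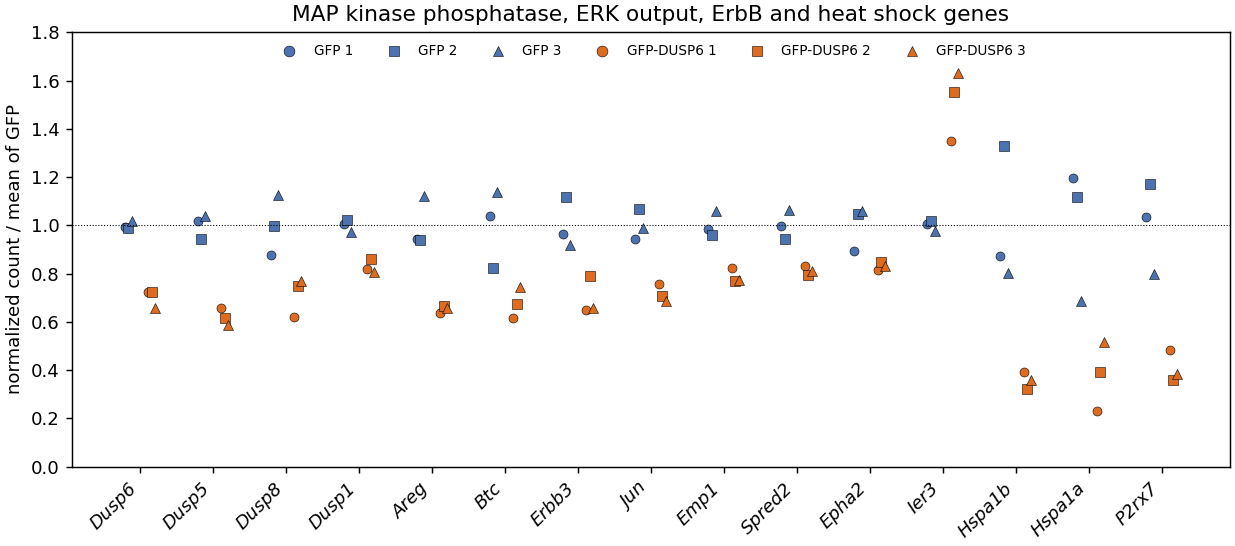
Normalized count of each library divided by the mean of the GFP libraries, for 15 genes, 1 symbol per library. All genes but Ier3 are lower in the libraries labelled GFP-DUSP6, from Dusp1 (log2 fold change -0.27) and Epha2 (-0.27) to Hspa1b (-1.48).

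A few genes of several stress families were lower. The neighbouring heat shock genes Hspa1b and Hspa1a on chromosome 17, which encode nearly the same inducible HSP70, had the largest lower differences among called genes whose GFP mean reached 50 normalized counts and whose groups did not overlap. Hspa1b held 159, 243 and 147 against 71.6, 59.2 and 65.7 normalized counts (-1.48 ± 0.21). Hspa1a held 67.2, 62.8 and 38.6 against 12.9, 22 and 29 (-1.39 ± 0.31). Reads could be split between the copies, and they were the only called members of 26 heat shock chaperone genes (7.69% lower, against 1.22% of genes tested). Hspa1a lost its call in 3 of the 6 refits without 1 library (edgeR adjusted p up to 0.0867). Of 38 genes of endoplasmic reticulum stress 6 were lower and 1 higher (15.8% and 2.63%, against 1.22% and 3.39% of genes tested). Examples are -0.35 ± 0.06 for Ppp1r15a (GADD34, which restores translation), -0.33 ± 0.07 for the transcription factor gene Atf3 and 0.38 ± 0.09 for Slc7a11, the cystine transporter, the higher one. Of the 21 p53 targets in the list 4 were lower (19.0%, against 1.22% of genes tested) and none higher. Log2 fold changes were -0.35 ± 0.05 for Mdm2, the ubiquitin ligase of p53, -0.40 ± 0.08 for Plk3 and -0.35 ± 0.08 for Pmaip1 (NOXA). Fas and Pcna, also targets of p53 but counted in other lists, were called higher (1.02 ± 0.19 and 0.39 ± 0.07). Without the third library labelled GFP-DUSP6, Ppp1r15a was the 1 stress gene of the endoplasmic reticulum list still called: Atf3, Atf6, Asns, Sel1l, Trib3 and Slc7a11 were lost, with edgeR adjusted p up to 0.0702, 0.145, 0.357, 0.27, 0.611 and 0.18 over the refits without 1 library. Asns and Trib3 were not called in the edgeR refit with all libraries either (adjusted p 0.0576 and 0.0775). Plk3, Pmaip1 and Plk2 lost their calls without that same library (edgeR adjusted p up to 0.0657, 0.139 and 0.201), and Mdm2 kept its call in each refit. Pmaip1 lost its call in 4 of the 6 refits without 1 library.

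The next largest lower differences under the same limits, which leave out low-count genes such as Fosb, included those of Creb5, a CRE-binding factor, at 78.6, 71.3 and 42.6 against 26.9, 26.7 and 20.3 normalized counts (-1.38 ± 0.28), and P2rx7, the ATP-gated channel, at 215, 244 and 166 against 100.5, 74.4 and 80.2 (-1.29 ± 0.18). Hecw2, a ubiquitin ligase, had -1.33 ± 0.29, Fer1l6 -0.87 ± 0.13, Car6, a secreted carbonic anhydrase, -0.74 ± 0.14, Vgf, a secreted neuropeptide precursor, -0.74 ± 0.15, and the predicted gene Gm4610 -0.97 ± 0.20. The calls of Creb5, Car6, Vgf and Gm4610 were lost without the third library labelled GFP-DUSP6 (edgeR adjusted p up to 0.0873, 0.0552, 0.0611 and 0.0912), and that of Hecw2 in 3 of the 6 refits (up to 0.107). Rn18s-rs5, a ribosomal RNA-related entry that is not in GENCODE M21, was the last of the 10 under those limits: it held 39582, 38382 and 40085 against 23816, 21815 and 25458 (-0.73 ± 0.06). Its level thus moved with the groups, and its part in the other differences was not tested.

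The markers picked here for other liver cells were called about as often as genes in general (4.61% of genes tested in either direction, 3.39% higher). None of 15 stellate cell and fibroblast genes was called, 1 of 14 endothelial genes (7.14%) was (Stab1, a scavenger receptor, 128, 112 and 141 against 271, 283 and 273 normalized counts, 1.12 ± 0.13), and 1 of 19 macrophage and leukocyte genes (5.26%; Cd14, 1769.8, 1847 and 1849 against 2510.2, 2521 and 2759). Mrc1 (macrophages and sinusoidal endothelium) and Ecscr (endothelium), which these marker lists leave out, were also called higher. Both lost their calls without the third library labelled GFP-DUSP6, and Ecscr in 3 of the 6 refits without 1 library (edgeR adjusted p up to 0.0502 and 0.104). Their log2 fold changes in the authors' deposited table were 0.73 and 0.59, and they were chosen after their values were seen. The shares thus depend on the markers picked. Genes not listed have no level here, so whether they are at 0 cannot be given. Of 42 hepatocyte genes only Apob, the protein of very low density lipoprotein, was called (2.38%, log2 fold change 0.33 ± 0.09). Its call was lost in 5 of the 6 refits without 1 library (edgeR adjusted p up to 0.192). Alb and Ttr are not listed, so the hepatocyte label cannot be checked in this table. Of 17 biliary and progenitor genes 3 were lower and 1 higher (17.6% and 5.88%, against 1.22% and 3.39% of genes tested). The lower ones had -0.39 ± 0.05 for the keratin gene Krt19, -0.43 ± 0.08 for Sox9 and -0.20 ± 0.06 for Sox4, both transcription factors. Spp1 (osteopontin) was higher (0.57 ± 0.08). Sox4 was not called in the edgeR refit with all libraries (adjusted p 0.0771). In bulk RNA fewer cells of a type and less RNA per cell cannot be told apart.

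Matrix and adhesion genes went both ways, with 4 higher and 4 lower of 61 (6.56% each, against 3.39% and 1.22% of genes tested). The higher ones were the integrin genes Itga1 (0.94 ± 0.18), Itga2 (0.36 ± 0.06) and Itgb6 (0.55 ± 0.09), and Serpine2 (0.43 ± 0.05), a protease inhibitor. Ccn2, a matricellular protein, was lower (-0.36 ± 0.06). Itga2 lost its call without the third library labelled GFP-DUSP6 (edgeR adjusted p 0.053). Itga1 and Itga2, which encode collagen receptors, are neighbours on chromosome 13. Among metabolic genes, 1 of 62 lipid genes was higher and 1 lower (1.61% each, against 3.39% and 1.22% of genes tested), none of 28 glucose genes was called, and 1 of 39 respiratory chain and mitochondrial ribosome genes (2.56%; Cox7a2) was higher. Of 40 detoxification genes 3 were higher (7.5%; Abcc1, Aldh1a1 and Gsr). These 4 genes turned negative under the scalings to the listed genes, and their calls were lost without the third library of either group, with edgeR adjusted p up to 0.246, 0.079, 0.294 and 0.304. Of 19 histone genes 2 were higher (10.5%), H2az1 and H1f0. Both turned negative under those scalings and lost their calls in 5 of the 6 refits without 1 library (edgeR adjusted p up to 0.294 and 0.205).

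**Figure D5:**
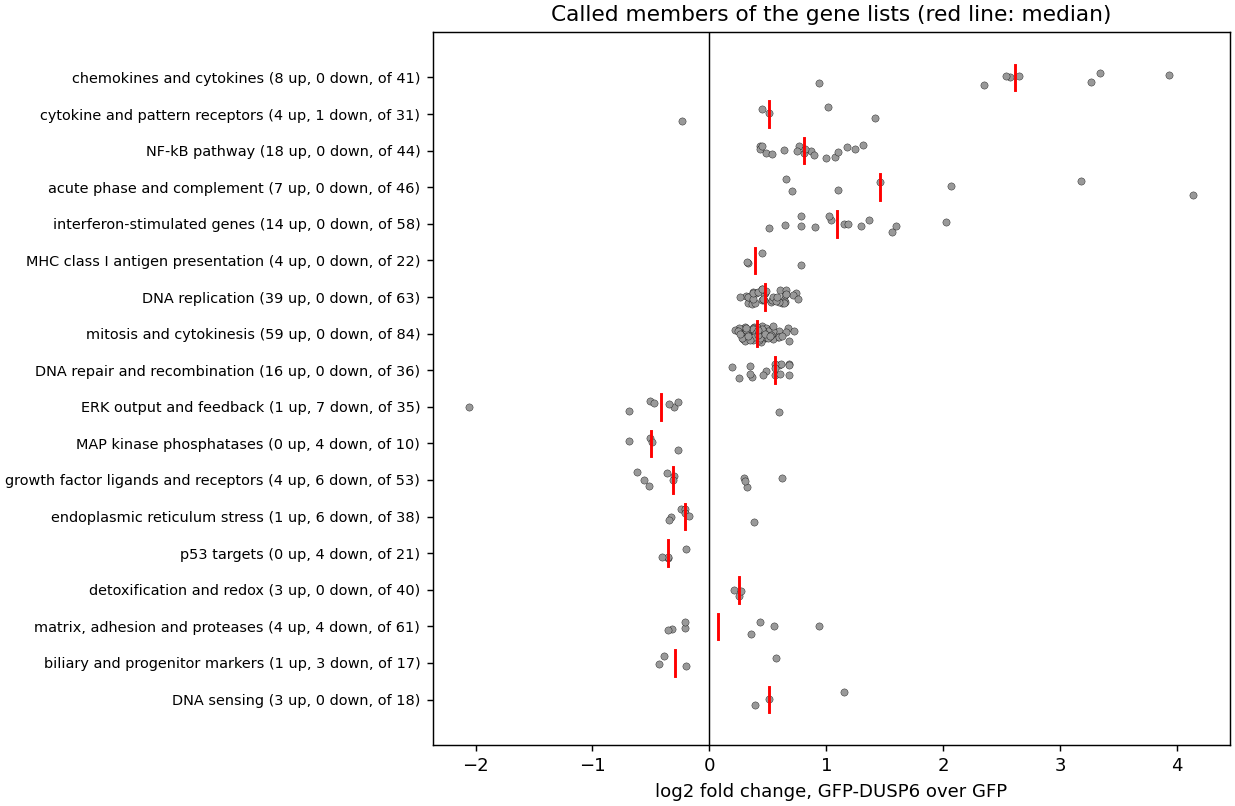
Log2 fold change of each called member (grey points, 1 per gene, with vertical scatter for sight only) in each list with 3 or more calls, with the number called in each direction of the genes in the list and the median over both directions (red). Chemokine, acute-phase, interferon and NF-kB genes lie furthest to the right, and replication and mitosis genes form narrow groups around 0.47 and 0.41. A scaling to the listed genes would move all points by about -0.30. By TMM this turns 8 mitosis, 3 detoxification, 2 DNA repair, 1 replication and 1 growth factor gene.

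Of the 580 called genes, 226 were in at least 1 of the 27 lists, some in several, and 354 were in none (237 higher and 117 lower). The examples from these 354 were chosen after their values were seen. Tmem176a and Tmem176b, membrane proteins whose genes are neighbours on chromosome 6, were both higher, at 3097, 3301 and 3038 against 5468, 5533 and 5725 normalized counts for Tmem176a (0.83 ± 0.05) and 0.72 ± 0.06 for Tmem176b. Neurl3, a ubiquitin ligase named for the size of its difference, held 19.7, 18.1 and 22.8 against 105, 68.7 and 99.5 (2.17 ± 0.26). Lgals3bp, a secreted glycoprotein that binds galectin 3, had 0.88 ± 0.07, and Slfn2 and Slfn9, schlafen genes next to each other on chromosome 11, 0.99 ± 0.10 and 1.09 ± 0.19. Tfrc, the transferrin receptor that imports iron, had 0.65 ± 0.09, and Slc39a4, a zinc importer, 0.75 ± 0.08.

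By position, 114 of the 575 called genes with coordinates lay within 100 kb of another called gene, in 52 groups, of which 35 held genes of 1 direction. Beside the pairs named, such groups held Tapbp and H2-K1 on chromosome 17 and Cdc6 with Top2a on chromosome 11. How many would lie so close among all tested genes is not known, since those that were not called are not listed.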

How the data were processed

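RNA from 6 AML12 libraries was compared, 3 with a GFP plasmid and 3 labelled GFP-DUSP6, grouped by the sample titles; NEBNext Ultra kits were used per the labels' protocols, and whether they kept the strand is not said there. The authors deposited whole-number counts per gene and library for selected genes, and per the file headers added each gene's log2 fold change and its raw and adjusted p-value. Per the file headers the authors' table of the siRNA comparison also holds a mean normalized signal and a linear fold (ratio). Per the submitters' processing notes DESeq2 and mm10 were used; their versions, the aligner, counter and annotation: not given in the sources used here.

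Because the table is selected, a gene was called from the authors' deposited adjusted p under 0.05. The number of tested genes (12592) was implied by the relation of p, rank and adjusted p in the deposited rows (505 rows within 0.01 of it). Size factors of whole libraries were recovered from deposited fold changes (489 genes, over 200 counts in each library) (largest error 0.00065 in log2). With these factors and no replicate block, an edgeR 4.0.16 quasi-likelihood refit (R 4.3.3) of 593 listed genes gave log2 fold changes ± SE, adjusted by Benjamini-Hochberg over 12592 genes. The dispersion rests on listed genes, so its SE had a median of 0.848 times that implied by the deposited p. The refit was tested on simulated counts. Of the listed IDs, 693 of 707 are in GENCODE M21. Replicate numbers were not used as pairs: correlations of deviations were 0.346, 0.366 and 0.0114 for the 3 numbers, and not every one exceeded 0.1.

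Genes named are Dusp6, the 15 higher and 10 lower called genes of the largest refit size with no overlap of libraries and at least 50 normalized counts on average in the higher group, and up to 6 called genes per list by the smallest deposited adjusted p; the other genes named were chosen after their values were seen, and some genes that this rule names are not reported here. The members and the 27 gene lists were chosen with earlier results of these data known. Alternatives were a DESeq2 1.42.0 refit, other scalings, no count filter, the replicate block and leaving out each library. Promoters are from RefSeq (GRCm38.p6); 449 of 580 called genes matched.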

Additional observations from a re-analysis of the deposited data

How the results depend on the processing

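Scaling to the listed genes made the largest changes, which follows from its construction: it takes the middle of a table with mostly higher genes as unchanged. With TMM over these genes 213 genes were called (57 higher), with median of ratios 200 (44 higher). The called members by TMM and by median of ratios were 11 and 8 for the NF-kB pathway, 6 and 3 for interferon-stimulated genes, 5 and 2 for DNA replication, 1 and 1 for mitosis, and 0 and 0 for DNA repair (where the edgeR refit with recovered size factors called 15 and DESeq2 15). Among the genes named by the rule given above, 6 turned negative under both scalings. Their log2 fold changes by TMM and by median of ratios were -0.045 and -0.071 for Abcc1, -0.028 and -0.054 for Aldh1a1, -0.088 and -0.115 for Gsr, -0.011 and -0.038 for Cox7a2, -0.098 and -0.125 for H2az1 and -0.099 and -0.126 for H1f0. By median of ratios alone, H2-D1 (-0.0034) and Tgfbr2 (-0.023) also turned among these named genes. Counted over all called genes of a list, by TMM and by median of ratios, 8 and 15 mitosis genes turned negative. So did 2 and 2 of DNA repair, 1 and 2 of replication and 1 and 2 growth factor genes. The refits by edgeR (529 calls) and DESeq2 (575) and the fit without a count filter (573) stayed within 1.5 times of the 580 deposited calls. Leaving out 1 library gave 199 to 509 calls (167 to 381 higher), with fewer samples in each fit. The range was 7 to 15 for interferon-stimulated genes, 22 to 39 for DNA replication, 24 to 51 for mitosis, 4 to 15 for DNA repair and 4 to 7 for the ERK genes called lower. No called gene changed sign, and 180 of the 580 calls were kept in all 6 of these refits. With the replicate number as a block 584 genes were called (431 higher) and no call of a named gene changed. Replicates 1 and 2 labelled GFP-DUSP6 correlated best with the GFP library of their own number, and replicate 3 did not (0.0114, against 0.0158 with GFP 2), so the numbers were not used as pairs. The log2 fold change of Dusp6 lay between -0.83 and -0.47 over these settings; both scalings to the listed genes move all values down, so no gene called lower could turn under them. Depth cannot be read from a table of selected genes, and the 127 genes without an adjusted p lie at its low end.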

Other observations

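Among the called genes of no list, some further ones, chosen after their values were seen, had values that no section above gives. Higher in the libraries labelled GFP-DUSP6 were Itgb3, the beta chain of the vitronectin receptor (0.85 ± 0.09, log2 fold change ± SE, 3 against 3 libraries), Gdpd5, a glycerophosphodiester phosphodiesterase (0.86 ± 0.10), Bid, the pro-apoptotic protein that caspase 8 cleaves (0.59 ± 0.06), and Rnf213, a large ubiquitin ligase (0.47 ± 0.05). Lower were Cdsn, corneodesmosin of cell junctions (-0.62 ± 0.08), Slc4a11, a membrane transporter (-0.49 ± 0.07), the transcription factor gene Klf6 (-0.38 ± 0.06), Krt20, a keratin of epithelia (-0.35 ± 0.05), and Gprc5a, an orphan receptor (-0.33 ± 0.05). In the siRNA comparison Rnf213 had means of 2790.1 normalized counts with NC and 13762 with siDUSP6, and Slc4a11 5425 and 11696.

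Of the listed genes without an adjusted p, Gbp6, an interferon-induced GTPase, held 0, 0 and 0 normalized counts in the GFP libraries and 3.98, 3.82 and 1.93 in those labelled GFP-DUSP6. Osmr, the receptor chain for oncostatin M, held 2.07, 3.19 and 4.95 against 0, 0 and 0. Ccl7, a chemokine next to Ccl2, held 2.07, 3.19 and 2.97 against 13.9, 18.1 and 8.70, and Cxcl11, a ligand of CXCR3, 4.14, 3.19 and 2.97 against 12.9, 12.4 and 16.4. All of these values are small and carry no call.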
